A study of Mus musculus with 20 samples.

Results

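The 9 genes described here make prostaglandins and leukotrienes and were taken by symbol from a fixed list: Ptgs1, Ptgs2, Ptges, Hpgds, Tbxas1, Alox5, Alox5ap, Lta4h and Ltc4s. All 9 are among the 16536 genes of one deposited table and the 16140 genes of the other. RNA was sequenced from monocytes and microglia sorted out of mouse brains 3 days after permanent photothrombosis, a model of ischaemic stroke in which illumination of a photosensitive dye blocks vessels of the cortex. The first table, called the GFP table here, holds 8 libraries of Cxcr4-GFP reporter mice, 4 of microglia sorted as GFP-negative and 4 of monocytes sorted as GFP-positive; each animal or pool (2 mice, 5 mice, and 2 single animals) gave 1 library of each population. Their titles carry the tag BrKo, which the Cre table gives to KO libraries (controls have BrC); the labels do not explain it, so the Cxcr4 genotype of these mice beyond the reporter is not known here. The second, called the Cre table, comprises 12 libraries from the Cxcr4CreER line, which carries a tamoxifen-dependent Cre recombinase, with 3 libraries each of microglia and monocytes from control mice, which the submitters describe as wild type, and from conditional Cxcr4 knockout (KO) mice. Every animal in the series had the stroke, so no group shows the uninjured level. Monocytes are labelled TdT-positive and microglia TdT-negative in both genotypes, so population and reporter signal coincide, and KO microglia are TdT-negative cells whose own Cxcr4 alleles are not shown. Of the Cre libraries, 2 control and 2 KO animals gave both populations. The labels used here give neither age, sex nor the tamoxifen schedule.

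Eicosanoids are short-lived lipid signals made from arachidonic acid, which phospholipase A2 frees from membranes. The cyclooxygenases, COX-1 encoded by Ptgs1 and COX-2 encoded by Ptgs2, turn it into prostaglandin H2, which terminal synthases convert to prostaglandin E2 (Ptges), prostaglandin D2 (Hpgds) or thromboxane A2 (Tbxas1). In the other branch 5-lipoxygenase (Alox5), helped by the membrane protein FLAP (Alox5ap), makes leukotriene A4. The hydrolase Lta4h turns that into leukotriene B4, an attractant of neutrophils and monocytes, and the synthase Ltc4s joins it to glutathione, giving leukotriene C4. Ptgs1 is mostly expressed at a steady level and is known as a microglial enzyme in the brain, whereas Ptgs2 is the classical inducible enzyme of activated myeloid cells.

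The stretches just before the starts of the 2 cyclooxygenase genes are shown because the monocyte and microglia libraries did not overlap for either gene and lay in opposite orders. Both come from RefSeq (build GRCm38.p6), end at the base before the annotated start, and lie on the plus strand, at chr2:36230176-36230425 for Ptgs1 and chr1:150099781-150100030 for Ptgs2. Capitals mark a match to one of the motifs searched.
Ptgs1: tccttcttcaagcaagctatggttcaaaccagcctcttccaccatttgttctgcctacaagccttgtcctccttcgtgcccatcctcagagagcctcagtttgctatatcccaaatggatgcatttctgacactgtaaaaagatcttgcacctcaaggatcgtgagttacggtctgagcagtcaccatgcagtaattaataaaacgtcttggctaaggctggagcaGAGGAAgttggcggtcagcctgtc
Ptgs2: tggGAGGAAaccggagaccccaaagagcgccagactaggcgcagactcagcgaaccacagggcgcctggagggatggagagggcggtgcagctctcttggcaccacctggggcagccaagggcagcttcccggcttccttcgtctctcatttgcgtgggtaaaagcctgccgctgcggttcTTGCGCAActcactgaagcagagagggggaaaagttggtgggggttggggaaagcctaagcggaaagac
The motifs were TATAAA (a core promoter box), TGANTCA (the AP-1 form), TGACGT (the core of a cyclic AMP element), an NF-kB form, TTGCNNAA (a C/EBP form), CACGTG (an E box) and GAGGAA (an ETS form), sought on both strands of 300-base windows that reach 50 bases past the start. Ptgs2 held TTGCGCAA at bases -69 to -62, which reads the same on both strands, and GAGGAA at -247 to -242. Past its start, where no bases are printed, it held ACGTCA (the core element on the other strand) at 13 to 18 and CACGTG at 17 to 22, which overlap. Ptgs1 held 1 match, GAGGAA at -24 to -19. Of all 32851 windows in the table, 10.8% held the C/EBP form, 7.51% the core element, 7.15% the E box and 28.3% the ETS form, so single matches are common. Windows were given for 8 of the 9 genes; a match is a string of letters and shows no binding.

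Values are normalized counts, that is the reads of a gene after division by a factor for the depth of its library, and the tables were normalized separately, so levels are compared only within a table. Libraries held 0.617 to 14.9 M reads in the GFP table and 9.73 to 56.8 M in the Cre table, where 1 read was worth 0.104 to 2.58 and 0.375 to 2.19 normalized counts. The ribosomal transcript Rn45s took 22.1% to 48.3% of the reads in the GFP libraries. It was highest in GFP microglia 2, beside 25.2% in GFP monocytes 2 of the same pool. Few genes were detected in 3 GFP libraries (5598 in microglia 3, 3489 in microglia 4, 3029 in monocytes 3), whereas the other 5 had at least 10422. The cyclooxygenase ratio and the counts and calls of the GFP table are given with and without those 3. Cxcr4 itself held 1183, 1332 and 1166 in control monocytes and 784, 1010.3 and 536 in KO monocytes (log2 fold -0.70, limma adjusted p 0.962). These groups did not overlap, as was so for 8.82% of all tested genes. Cxcr4 held at most 7.88 in the Cre microglia, and values summed over a gene cannot show the deleted stretch. Fold changes are on the log2(value + 1) scale from limma with their standard error (SE), and a gene was called where its p, adjusted by Benjamini-Hochberg across the tested genes of the table, was under 0.05. Because these are bulk libraries, fewer cells of a type and less RNA per cell cannot be told apart. The p-values measure the spread between the libraries of a group, each from a separate animal or pool. The antisense models Gm43621, Gm19719, Gm26542 and Gm42962 overlap exons of Ptgs1, Alox5ap, Ltc4s and Tbxas1 in GENCODE, and reads of such pairs could not be told apart where strand was not used in counting.

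In control mice monocytes were higher in Ptgs2 and lower in Hpgds and Ltc4s, and in KO mice Alox5ap was higher as well. In control mice 1 of the 8 tested members rose in monocytes and 2 fell, while 3.46% of the 12432 tested genes rose and 3.06% fell. In KO mice 2 rose and 2 fell, against 3.85% and 2.98% of all tested genes. Groups did not overlap for 4 of the 8 in control mice (22.1% of all tested genes) and for 5 of the 8 in KO mice (27.5%). The median log2 fold over the tested members was -0.96 in control and -1.11 in KO mice, beside -0.24 and -0.25 over all tested genes. Ptges did not pass the filter on low values in either table.

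**Figure D1:**
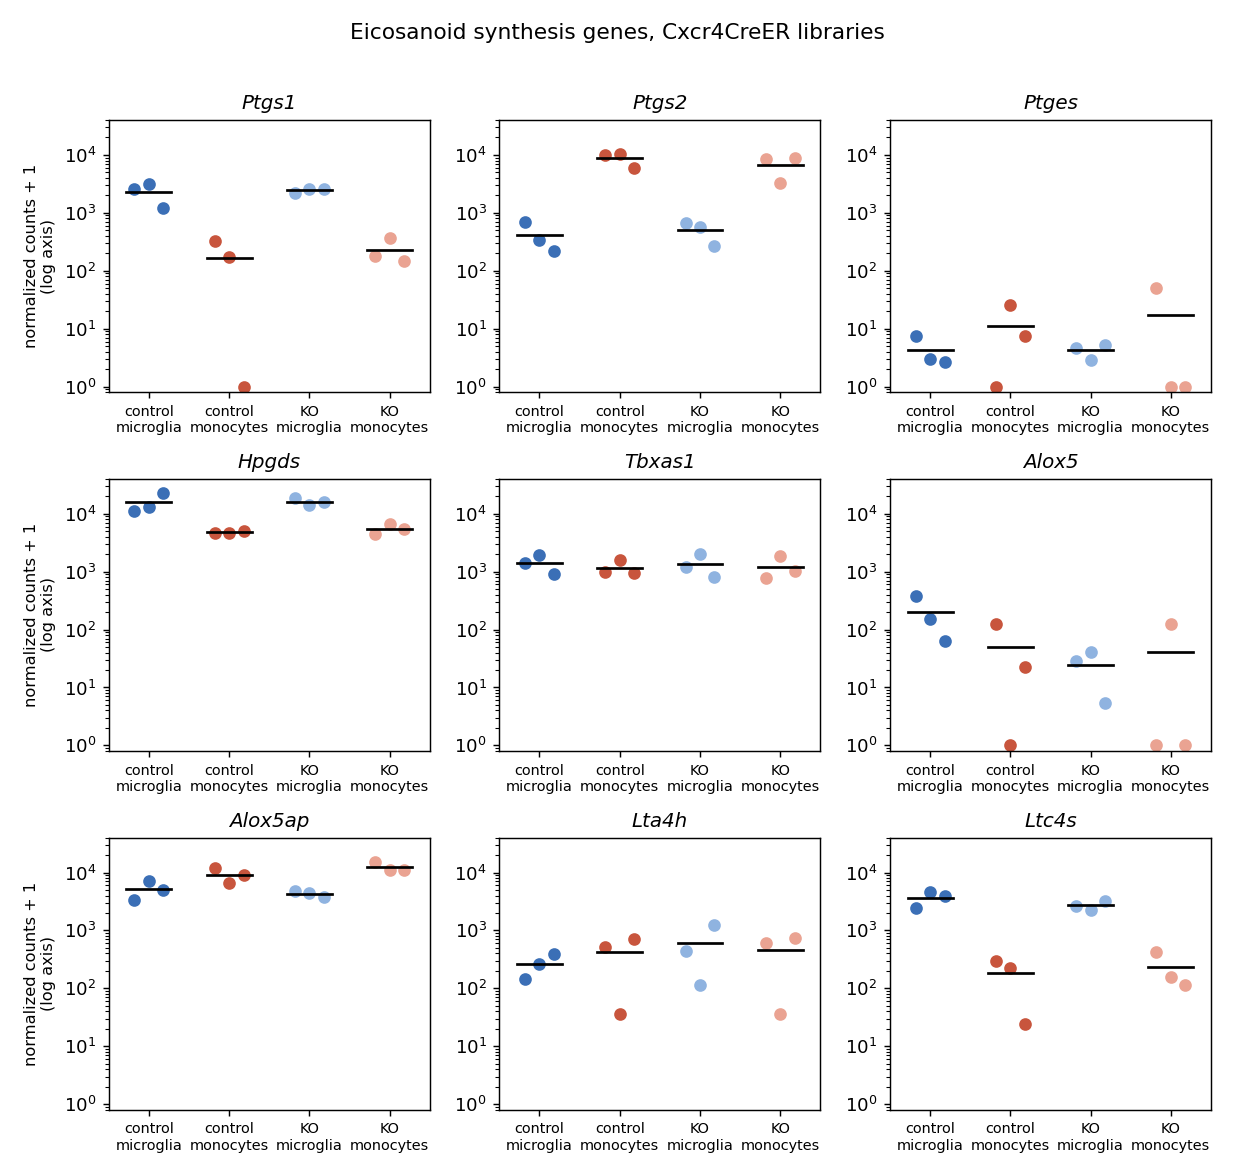
Normalized counts plus 1 (log axis) of the 9 genes in the 12 Cxcr4CreER libraries; each point is 1 library, in replicate order within its group, and bars are group means. Every monocyte library is above every microglia library for Ptgs2, while Ptgs1, Hpgds and Ltc4s lie the other way round and the Tbxas1 groups overlap.

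Ptgs2 encodes the inducible cyclooxygenase. Control monocytes held 9797, 10384 and 5929 normalized counts in libraries 1, 2 and 3, and control microglia 689, 337 and 217. In KO mice the monocytes held 8334, 3236 and 8748 and the microglia 657, 558 and 271. The lowest monocyte library thus stood above the highest microglia library in both genotypes. Group means were 8704 ± 2420.4 against 414 ± 245 (SD, n = 3) in control and 6773 ± 3070.1 against 495 ± 200.01 in KO mice. Ptgs2 rose in monocytes by a log2 fold of 4.51 (SE 0.54, adjusted p 0.000431) in control mice. In KO mice the log2 fold was 3.73 (SE 0.54, adjusted p 0.00158). It was higher in the monocyte library of all 4 animals that gave both populations, and it was called in all 16 alternative analyses of each genotype, with log2 folds from 4.13 to 4.96 and from 3.35 to 4.20.

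Ptgs1, the steady cyclooxygenase, had the opposite order. Its values were 2607, 3177 and 1216 in control microglia against 324, 169 and 0 in control monocytes. KO microglia held 2236, 2544 and 2571 and KO monocytes 177, 359.6 and 148. No monocyte library reached the lowest microglia library, and control monocytes 3, with 14.5 M reads, had no Ptgs1 read at all. Ptgs1 did not pass the test, with a log2 fold of -5.83 (SE 1.62, adjusted p 0.0549) in control and -3.53 (SE 1.62, adjusted p 0.261) in KO mice. The call in control mice turned on single libraries: without control monocytes 1, 2 or 3 the log2 fold was -7.37, -6.91 or -3.20 with adjusted p 0.0241, 0.0433 or 0.00919. It also passed in control mice with a pseudocount of 10 (adjusted p 0.0124), a filter of 50 (0.0455), scaling to total reads (0.0467) or DESeq2 (0.00488), and in KO mice with DESeq2 (0.015) or with only the 2 KO groups in the fit (0.00683).

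The balance of both cyclooxygenases within a library does not depend on the scaling of that library apart from the pseudocount. Expressed as log2 of Ptgs2 + 1 over Ptgs1 + 1, it was 4.92, 5.93 and 12.53 in control monocytes and -1.92, -3.23 and -2.48 in control microglia. KO monocytes stood at 5.55, 3.17 and 5.87 and KO microglia at -1.77, -2.19 and -3.24. In the GFP table monocytes had 4.05, 4.87, 8.55 and 2.87 and microglia -1.45, -2.84, -5.58 and -5.52. Every one of the 20 libraries was thus on the side of its population, above 0 for monocytes and below 0 for microglia; the sign itself compares genes of different transcript length and is used only to place libraries against each other. The difference between populations was 10.34 in control mice and 7.26 in KO mice, each with an exact permutation p of 0.1, the smallest that 3 against 3 libraries allow. Within genotype strata it was 8.80 (two-sided exact permutation p 0.005, the smallest of 400 arrangements; 0.07 after adjustment over the 14 ratio tests). GFP monocytes and microglia differed by 8.93 (exact permutation p 0.0286, adjusted 0.133). Without the 3 GFP libraries of few detected genes the difference was 6.08 (exact permutation p 0.1; with 3 libraries against 2, no lower p is possible). Without control monocytes 3, the library with no Ptgs1 read, the control difference was 7.97. Neither gene overlapped between the populations in either table, and their orders were opposite. The permutation p-values of this ratio between populations were therefore bound to be the smallest possible, and add no support beyond the values of each gene.

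**Figure D2:**
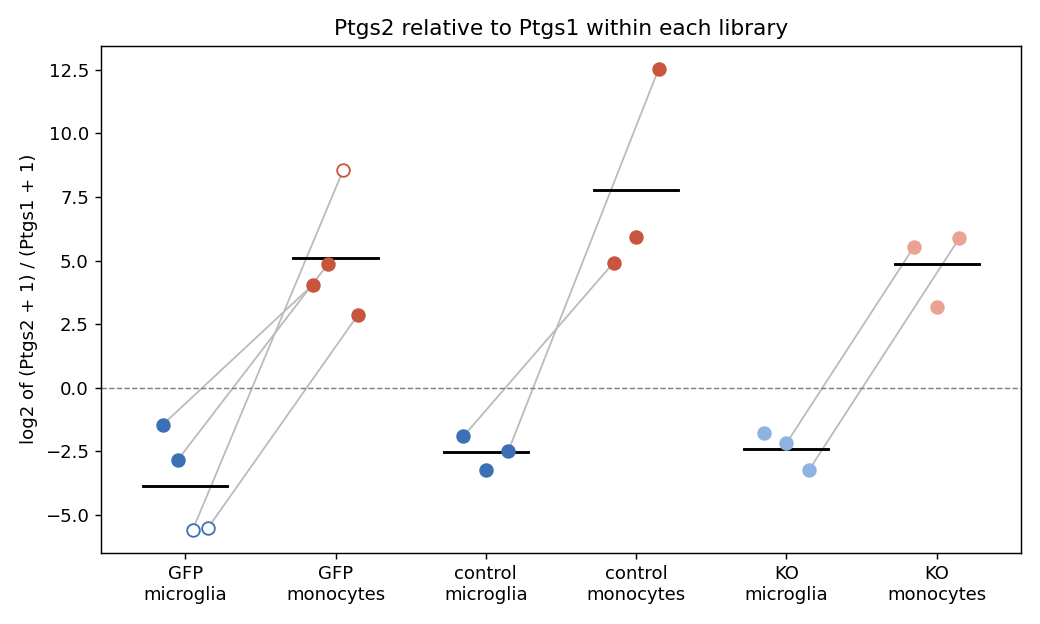
Log2 of (Ptgs2 + 1) over (Ptgs1 + 1) in each of the 20 libraries; bars are group means, grey lines join libraries of 1 animal or pool, and open points are the 3 GFP libraries with few detected genes. All 10 monocyte libraries lie above 0 and all 10 microglia libraries below it.

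Hpgds makes prostaglandin D2 in haematopoietic cells, and it was the most evenly measured member. Control microglia held 11236, 13118 and 23089 and control monocytes 4686, 4579.9 and 5055. KO microglia held 18347, 13982 and 16189 and KO monocytes 4510.3, 6746 and 5394. Microglia were above monocytes in every library, 3.31-fold by the means in control and 2.91-fold in KO mice, so monocytes still carried about 30.2% and 34.3% of the microglial level. Hpgds fell in monocytes by a log2 fold of 1.66 (SE 0.27, adjusted p 0.00349) in control mice. In KO mice the log2 fold was -1.55 (SE 0.27, adjusted p 0.00505). Both calls held in all 16 alternatives of each genotype.

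Tbxas1, thromboxane A synthase, had no order across the 4 groups of the Cre table. Its values were 1418, 1911 and 926 in control microglia, 981, 1615 and 927 in control monocytes, 1196, 1992 and 796 in KO microglia, and 784, 1829 and 1025 in KO monocytes. All groups overlapped, and the spread inside each group was wider than the gaps between the means. The log2 fold of monocytes over microglia was -0.26 in control mice with a 95% interval of -1.30 to 0.78, and -0.12 in KO mice with an interval of -1.16 to 0.92. Prostaglandin E synthase (Ptges), the inducible partner of Ptgs2, was barely detected. It had 13 reads over the control microglia libraries, 16 over control monocytes, 10 over KO microglia and 57 over KO monocytes, all 57 in KO monocytes 1. In the GFP table there were 3 reads in all.

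Alox5ap encodes FLAP, which presents arachidonic acid to 5-lipoxygenase. Control monocytes held 11772, 6548 and 9053 against 3302, 7176 and 5033 in control microglia. In KO mice monocytes held 15036, 11246 and 10864 against 4735, 4487 and 3779.6. The control groups overlapped through control monocytes 2 and control microglia 2, and the KO groups did not. Alox5ap rose in KO monocytes by a log2 fold of 1.51 (SE 0.31, adjusted p 0.0127). In control mice the log2 fold was 0.85 (SE 0.31, adjusted p 0.143), which missed the threshold. The KO call was lost without KO monocytes 1 (adjusted p 0.0560), without KO microglia 3 (0.0556) or with scaling to total reads (0.0625). The difference between the genotypes in this contrast was 0.66 (95% interval -0.30 to 1.61, adjusted p 0.999), so a population difference of Alox5ap in KO mice alone is not shown.

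Alox5, the lipoxygenase itself, was low and patchy. Control microglia held 383, 152 and 62.4 and control monocytes 122, 0 and 21.7. KO microglia held 27.4, 39.3 and 4.31 and KO monocytes 0, 122 and 0. Both monocyte groups had libraries at 0 beside a library near 122, so their spread covers the range of both microglia groups except for the highest control libraries. The log2 folds of monocytes over microglia were -3.46 (SE 2.15, adjusted p 0.418) in control and -1.88 (SE 2.15, adjusted p 0.71) in KO mice.

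Lta4h, which makes leukotriene B4, had no order by group. Control monocytes held 506, 35.1 and 708, control microglia 141, 267 and 392, KO monocytes 597, 35.3 and 745, and KO microglia 444, 114 and 1239. In each monocyte group library 2 was far below the other two, and the 95% interval of the log2 fold ran from -3.09 to 2.95 in control and from -3.68 to 2.37 in KO mice.

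Ltc4s, leukotriene C4 synthase, belonged with the microglia. Control microglia held 2430.03, 4601 and 3901, and control monocytes 301, 219 and 23.0. KO microglia held 2622, 2261 and 3247 and KO monocytes 419, 157 and 114. The groups were far apart in both genotypes, 20.1-fold by the means in control and 11.8-fold in KO mice. Ltc4s fell in control monocytes by a log2 fold of 4.91 (SE 0.84, adjusted p 0.00465), with a log2 fold of -3.77 without control monocytes 3 and -5.60 without control monocytes 1. The control call was lost when only the 2 control groups entered the fit (adjusted p 0.0511). In KO mice it fell by 3.77 on the log2 scale (SE 0.84, adjusted p 0.0193), and that call was lost without KO microglia 1, 2 or 3 or KO monocytes 2 or 3 (adjusted p 0.0629, 0.0543, 0.0739, 0.0603 and 0.0688). The log2 ratio of Lta4h to Ltc4s, which sets the enzyme of leukotriene B4 against that of C4, was 3.98 higher in monocytes within genotype strata (two-sided exact permutation p 0.015, adjusted 0.105).

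The Cxcr4-GFP libraries gave the same order for the cyclooxygenases with more spread. Ptgs1 was 483, 695, 166 and 522 in microglia libraries 1 to 4 and 38.2, 28.7, 0 and 33.9 in monocytes. Ptgs2 was 176, 96.4, 2.50 and 10.4 in microglia and 650.4, 867, 373 and 254 in monocytes. Neither gene overlapped between the populations, and both pointed the same way in 4 of 4 animals or pools. None of the 7 tested members was called, while 0.908% of 7706 tested genes were; 2 of the 7 did not overlap, against 9.41% of tested genes. Over these libraries limma gave 3 of the 7 an unadjusted p under 0.05, beside 580 of the 7706 tested genes. Of the 7, edgeR called 0 and DESeq2 called 1. The log2 fold was -4.87 (SE 1.40, adjusted p 0.111) for Ptgs1 and 4.07 (SE 1.25, adjusted p 0.155) for Ptgs2.

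Without the 3 libraries of few detected genes, 4 of the 7 members were called, while 15.5% of tested genes were. That fit held 3 monocyte libraries against only 2 microglia libraries, both of them pools. The main test was set for all GFP libraries, and the 3 left out were picked by the number of genes detected in these data. Ptgs1 then had a log2 fold of -4.08 (adjusted p 6.88e-06), Ptgs2 of 2.00 (0.0112), Alox5ap of 1.49 (0.00761) and Hpgds of -1.94 (0.000608). All 4 have the direction seen in the Cre table. A single library also decided calls here: Ptgs1 was called without GFP monocytes 3 (log2 fold -3.59, adjusted p 0.0272) and Ptgs2 without GFP microglia 1 (4.94, adjusted p 0.0479). The low counts of Ptgs2 in microglia 3 and 4 are 2 and 7 reads, in libraries of 1.11 and 0.851 M reads.

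The remaining members were thin in the GFP table. Alox5ap was 90.4, 152, 0 and 442 in microglia and 262, 449, 814 and 310.2 in monocytes, with an overlap through microglia 4 (log2 fold 3.06, adjusted p 0.564). Hpgds was 661, 580.05, 187 and 1.48 in microglia and 222, 126, 0 and 148 in monocytes. Ltc4s, which was not tested there, was 87.8, 106, 119.9 and 0 in microglia against 8.77, 0, 0 and 4.85 in monocytes. Each of these contrasts was broken only by a library of few detected genes. Tbxas1 ranged from 90.4 to 240 in microglia and from 0 to 113 in monocytes, Alox5 from 0 to 260 and from 0 to 21.8, and Lta4h from 0 to 33.6 and from 0 to 75.1, and none of the 3 was called.

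**Figure D3:**
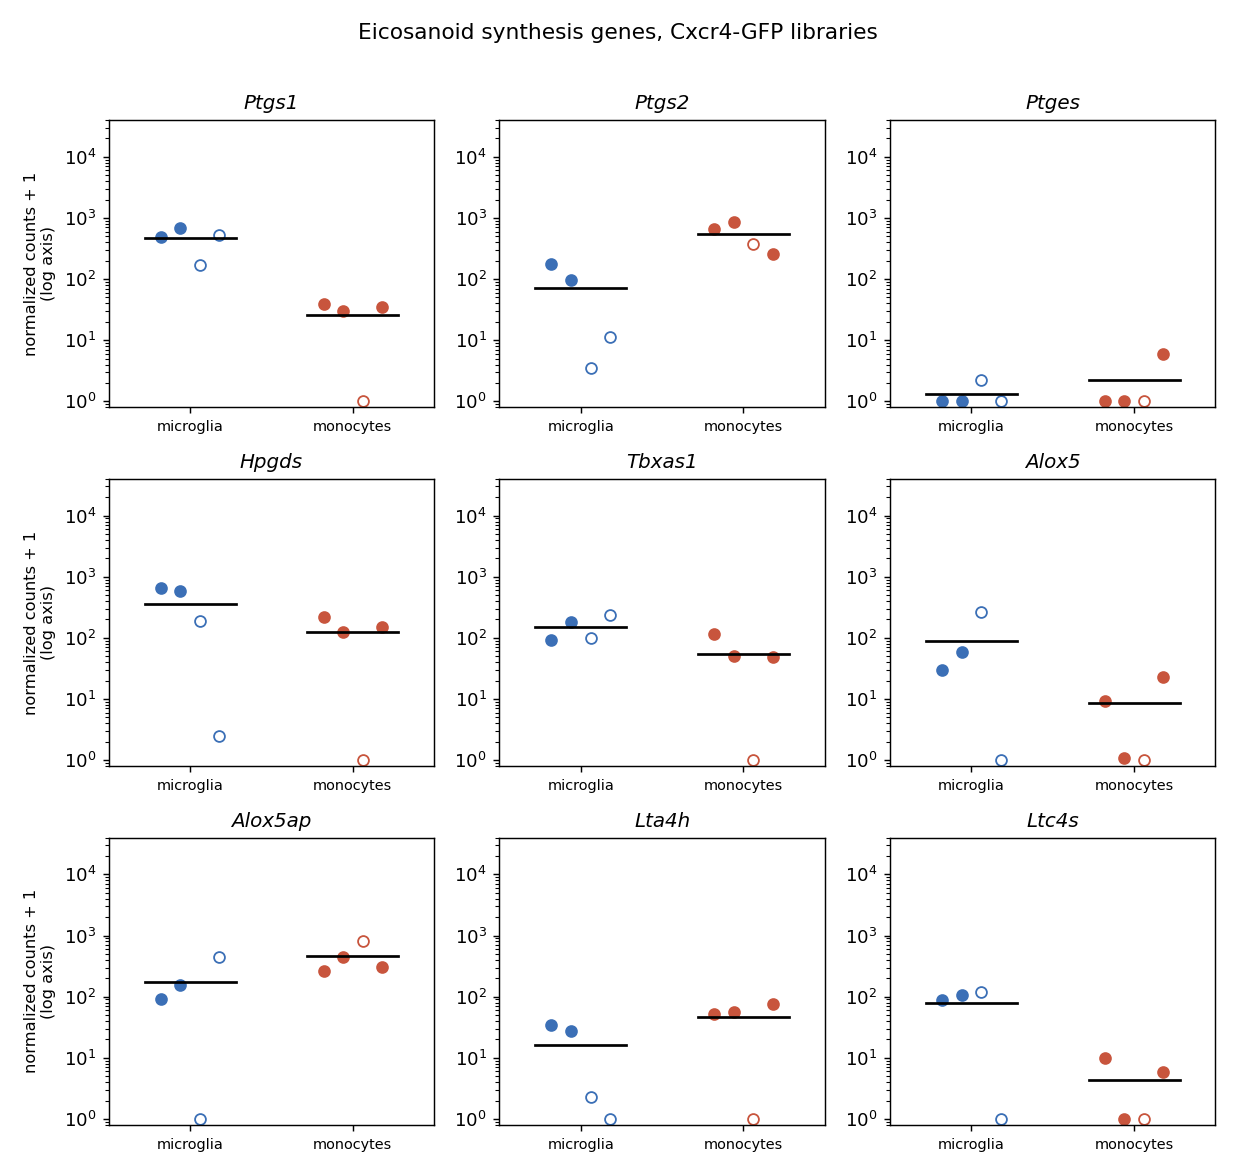
Normalized counts plus 1 (log axis) of the 9 genes in the 8 Cxcr4-GFP libraries; each point is 1 library, bars are group means, and open points are the 3 libraries with few detected genes. Ptgs1 and Ptgs2 are apart between the populations in all libraries, and open points at 1 are genes without a read.

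Libraries of KO and control mice were compared within each population. None of the 8 tested members was called in KO against control monocytes, where 0.0402% of tested genes were called, nor in KO against control microglia, where 0.0322% were. By limma none had an unadjusted p under 0.05 in either comparison, beside 756 of 12432 tested genes in monocytes and 439 in microglia. The fits by edgeR and DESeq2 called 0 members in both. Hpgds was the most closely bounded member, with a log2 difference of 0.20 in monocytes (95% interval -0.39 to 0.79) and 0.10 in microglia (-0.49 to 0.69). For Ptgs2 the difference was -0.45 in monocytes (-1.63 to 0.73) and 0.33 in microglia (-0.85 to 1.505). Alox5ap differed by 0.47 in monocytes (-0.21 to 1.14) and by -0.19 in microglia (-0.86 to 0.48). The intervals of Ptgs1, Alox5, Lta4h and Ltc4s are wide, such as -1.06 to 6.02 for Ptgs1 in monocytes, so large changes of these genes would not have been seen.

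Alox5 in microglia was the one member whose genotypes did not overlap, against 0 of 8 members in monocytes; among all tested genes the share without overlap was 9.46% in microglia and 8.82% in monocytes. Its highest KO microglia library, at 39.3, lay below the lowest control library, at 62.4, and the means were 23.7 ± 17.8 and 199 ± 166 (SD, n = 3). The log2 fold was -3.09 (SE 2.15), with an unadjusted p of 0.177 and an adjusted p of 1.0 by limma. The genotype-by-population term, which asks whether the KO difference of monocytes differs from that of microglia, called none of the 8 members and 0% of all tested genes. For that term 590 genes had an unadjusted p under 0.05, edgeR called 0 genes and DESeq2 276, with 0 members among them.

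**Figure D4:**
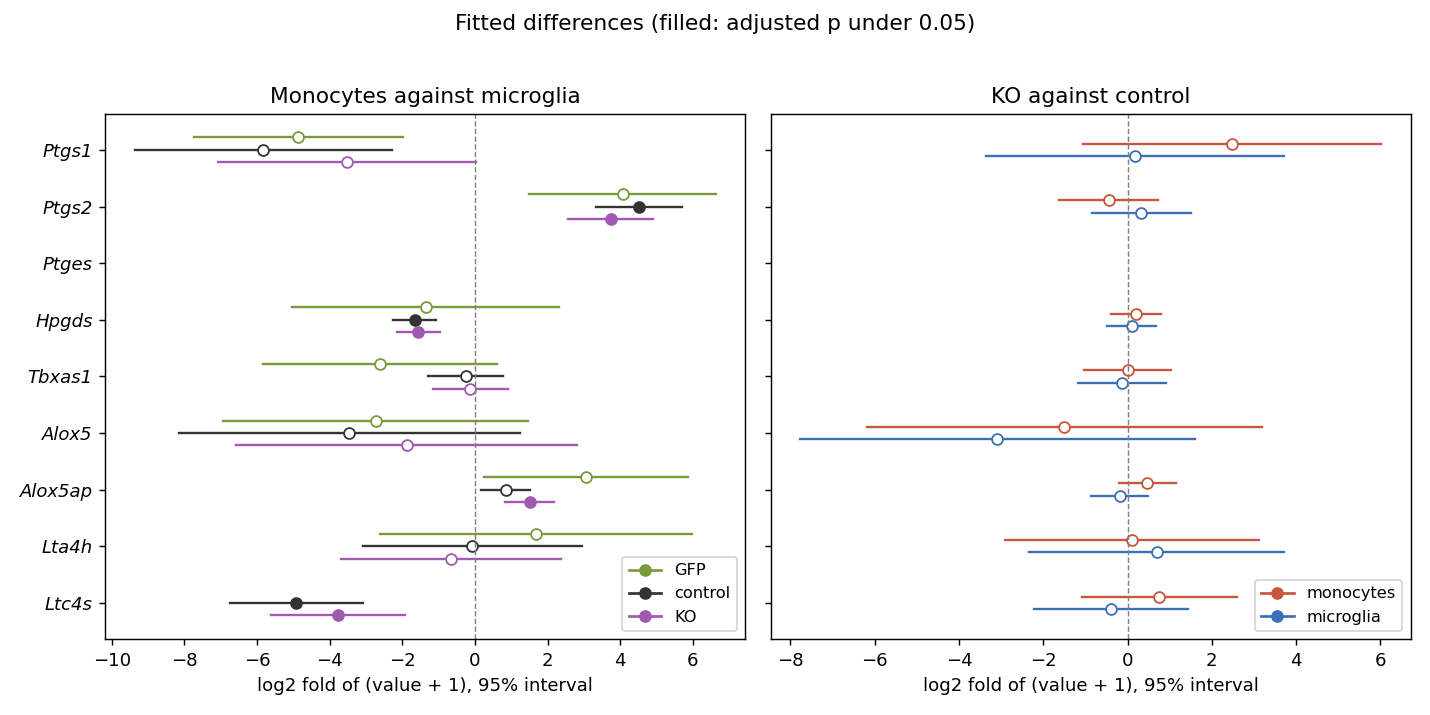
Log2 folds of (value + 1) with 95% intervals for each tested member, monocytes against microglia on the left and KO against control on the right; filled points have an adjusted p under 0.05. Ptgs2, Hpgds and Ltc4s are filled in both genotypes on the left, Alox5ap in KO only, and no point is filled on the right.

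In the Cre table the summed markers of microglia, monocytes, neutrophils and platelets differed between the populations, while the endothelial sums overlapped. In the GFP table the neutrophil sums overlapped, at 892 to 1460 in microglia and 418 to 1762 in monocytes. Of the 10 neutrophil markers, Camp, Ltf, Ly6g and Retnlg had no read in GFP microglia, while all had reads in GFP monocytes. The values that follow are from the Cre table. The summed level of 10 microglia markers in monocytes was 11.5% of the microglia mean in control mice (range over libraries 9.34% to 12.9%) and 10.8% in KO mice (8.18% to 14.1%). The defining marker P2ry12 stood at 4.93% and 4.57%. Ptgs1 in monocytes, at 7.04% and 9.32% of the microglia mean, and Ltc4s, at 4.97% and 8.48%, lay between P2ry12 and the marker sum, whereas Hpgds, at 30.2% and 34.3%, lay above both. In the other direction, the summed level of 10 monocyte markers in microglia was 6.52% and 5.15% of the monocyte mean, beside 4.76% and 7.31% for Ptgs2. The part of carried-over cells or RNA in these low values was not tested.

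Ptgs2, Alox5ap and Alox5 are also genes of neutrophils, and Ptgs1 and Tbxas1 of platelets. The 10 neutrophil markers summed to 18026 to 42487 in control monocytes and 40238 to 74821 in KO monocytes, against 908 to 1924 and 1373 to 4030 in the microglia, where Ly6g, Ltf, Mmp8 and Ngp were at 0 in both groups. The 8 platelet markers in the table, of 9 listed, summed to 3321 to 12221 in control and 4428 to 6671 in KO monocytes against 290.1 to 863 in microglia, with Gp9 and Gp1ba at 0 in monocytes. Of 10 mast cell and basophil markers, which matter for Hpgds and Ltc4s, 3 were in the table; they summed to 256 to 681 in monocytes and 0 to 125 in microglia, and Mcpt4 was at 0 in monocytes. The 5 eosinophil markers summed to 19.2 to 3523 in monocytes and 0 to 617 in microglia. The value of 3523 was KO monocytes 1, and the other monocyte libraries held 19.2 to 234. Ear6 and Epx were at 0 in both microglia groups and in control monocytes. The 8 markers of border-associated macrophages summed to 4086 to 6693 in monocytes and 990.3 to 2929.96 in microglia, with Lyve1 and Cd209f at 0 in monocytes. The platelet sum was higher in the population where Ptgs1 was lower, and the mast cell sum where Ltc4s and Hpgds were lower. In control mice the mast cell sum came from Hdc alone in monocytes and from Mcpt4 alone in microglia. The part of these cells in the differences was not tested.

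Around the 9 genes, 79 genes of the same pathway were listed (release of arachidonic acid, further enzymes, breakdown and transport, receptors, regulators of Ptgs2, and relatives of FLAP). Of 58 tested in the Cre table, 7 rose and 3 fell in control monocytes against control microglia, and 5 rose and 2 fell in KO mice. None was called in the KO against control comparisons or in the interaction. In the GFP table none of 34 was called with all 8 libraries, and 8 rose and 9 fell without the 3 libraries of few detected genes, a choice made after seeing the data, where 15.5% of all tested genes were called. Among these, Dpep2 (log2 fold 6.14), Cyp4f18 (3.98), Fpr2 (4.65), Il1b (1.37), Cebpb (1.42) and Lpcat2 (-2.31) had the sign they have in the Cre table, and Nfkbia (-0.69, adjusted p 0.0373) the opposite sign. Over all tested genes 3.46% rose and 3.06% fell in control mice, and 3.85% and 2.98% in KO mice.

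FLAP, leukotriene C4 synthase and prostaglandin E synthase belong to the MAPEG family of membrane enzymes. Of 3 tested relatives, 1 rose in monocytes in each genotype and none fell. Mgst1, a microsomal glutathione transferase, held 3734 ± 529 in control monocytes and had no read in control microglia. Its monocyte mean was 4492-fold higher if the control microglia are set to a floor of 3 reads in all. In KO mice Mgst1 held 4620.1 ± 1079 against 27.7 ± 47.9, all from KO microglia 1, and rose by a log2 fold of 10.02 (SE 1.43, adjusted p 0.00151), or 12.15 without that library and 8.95 without KO microglia 2 or 3. Mgst2 and Mgst3 were not called, with log2 folds of -0.44 and 2.85 in control and -1.64 and 1.39 in KO mice. Such floors cover counting error only, because PCR copies of 1 molecule can be counted more than once.

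Among 13 further enzymes tested, 2 rose and 2 fell in control and 1 rose and 1 fell in KO monocytes. Dpep2, a dipeptidase that trims leukotriene D4 to E4, was 1189.7 ± 269 in control monocytes against 75.2 ± 9.23 in microglia (log2 fold 3.95, SE 0.52, adjusted p 0.000783). In KO mice Dpep2 was 1577 ± 679 against 84.0 ± 18.9 (log2 fold 4.15, adjusted p 0.000619). Cyp4f18, a leukotriene B4 hydroxylase of myeloid cells, was 4381 ± 1635 in control monocytes against 63.8 ± 96.9 (log2 fold 8.16, adjusted p 0.0216). That call was lost without control microglia 1 or 3 or control monocytes 1 or 3 (adjusted p 0.0557 to 0.0705), and the log2 fold was 9.96 without control microglia 2. It was also lost with edgeR (adjusted p 0.0878) and with only the 2 control groups in the fit (0.0634). The epoxide hydrolase Ephx1 had no read in any Cre monocyte library and 239.6 ± 280.4 in control and 98.2 ± 47.7 in KO microglia. These means were 200.03-fold and 174-fold above the same kind of floor. Single libraries ranged from 9.40 to 552 in control and from 46.5 to 140 in KO microglia, so neither fold is a lower bound. The call of Ephx1 was lost without control microglia 2 (limma adjusted p 0.0517), and in KO mice without KO microglia 2 or 3 or KO monocytes 1 or 3 (0.0514 to 0.0593). Both calls were also lost with a pseudocount of 10 (0.0543 in control and 0.0738 in KO mice) and with edgeR (0.055 in each), and the control call with only the 2 groups (0.106). In control mice the fitted log2 fold of Ephx1 was -6.60, or -5.34 without control microglia 1, -8.21 without control microglia 3 and -3.61 with a pseudocount of 10.

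Ptges2, a second prostaglandin E synthase, was highest in control microglia. It held 289.7, 53.2 and 271 there, against 3.95, 2.19 and 0 in control monocytes, 5.47, 0 and 1.72 in KO microglia, and 10.4, 0 and 0 in KO monocytes. It fell in control monocytes by a log2 fold of 6.02 (SE 1.39, adjusted p 0.0225), a call lost without control microglia 1 or 3 or control monocytes 2 or 3 (adjusted p 0.0501 to 0.0765), with a log2 fold of -6.81 without control microglia 2. It was also lost with edgeR (adjusted p 0.187) and with only the 2 control groups in the fit (0.0794). The KO and control microglia did not overlap, as was so for 9.46% of all tested genes. The log2 fold of Ptges2 there was -5.96 (SE 1.39) with an unadjusted limma p of 0.00107, but the adjusted p was 0.59.

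Arachidonate release and reacylation held 1 call of 17 tested genes in each genotype: Lpcat2, which attaches acyl groups to lysophospholipids and acetyl to the precursor of platelet-activating factor, fell in monocytes. It was 2229 ± 159.97 against 7165 ± 1288 in control mice (log2 fold -1.67, SE 0.34, adjusted p 0.0111) and 1216 ± 488 against 7847 ± 1599 in KO mice (-2.76, adjusted p 0.000511). KO monocytes lay below control monocytes in Lpcat2 without overlap (log2 fold -0.97, SE 0.34, unadjusted p 0.014, limma adjusted p 0.68), beside 8.82% of all tested genes without overlap; the interaction had an unadjusted p of 0.04 (adjusted p 0.999). The median log2 fold of this list was -1.97 in control and -1.46 in KO mice. None of the 7 breakdown and transport genes was called. Hpgd, the dehydrogenase that inactivates prostaglandins, was 2655 ± 731 in control microglia against 252 ± 218 in monocytes (limma adjusted p 0.231) and 3109.8 ± 1077 against 218 ± 376 in KO mice (limma adjusted p 0.0564). Its populations did not overlap in either genotype, as was so for 22.1% of all tested genes in control and 27.5% in KO mice. Ptgds, another prostaglandin D2 synthase, held 185, 0 and 199 in control monocytes and no read in KO monocytes, with overlap at 0 (unadjusted p 0.0353, adjusted p 0.781), and its interaction had an unadjusted p of 0.0184 (adjusted p 0.982). Ptgr2, a prostaglandin reductase, did not overlap between genotypes in either population, as was so for 8.82% of all tested genes in monocytes and 9.46% in microglia: KO monocytes held 645 ± 92.8 against 211 ± 99.2 (adjusted p 0.847) and KO microglia 755 ± 50.2 against 326 ± 259.6 (adjusted p 1.0).

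Receptors were mostly too low to test. Of 9 prostanoid receptors 2 passed the filter and none was called. The prostaglandin E2 receptor Ptger4 was 1142 ± 358 in control monocytes against 293 ± 234 (log2 fold 2.32, limma adjusted p 0.0823) and 1537 ± 891 against 276 ± 78.2 in KO mice (2.35, limma adjusted p 0.0758). The populations did not overlap, beside 22.1% (control) and 27.5% (KO) of all tested genes without overlap. Of 9 leukotriene and lipoxin receptors 6 were tested and 1 rose. Fpr2, the receptor of lipoxin A4 and formyl peptides, was 162 ± 39.7 in control and 471 ± 317 in KO monocytes and had no read in any Cre microglia library (limma adjusted p 0.00159 and 0.000525). Its monocyte means were 194-fold and 438-fold above a floor of 3 reads over the microglia of each genotype.

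Of 10 genes listed as inducers or RNA regulators of Ptgs2, 3 rose in control and 2 in KO monocytes, and none was called lower. Tnf, also listed, had lower means in monocytes. In KO mice it was 6371 ± 3701 against 10835 ± 130, without overlap (as for 27.5% of all tested genes), and in control mice 5807 ± 770 against 6767 ± 3324. GFP monocytes held 160 ± 162 of Tnf against 654 ± 184 (limma adjusted p 0.24), without overlap, as was so for 9.41% of tested genes there. Without the 3 libraries of few detected genes its log2 fold was -2.90 (limma adjusted p 0.00252). The cytokine gene Il1b was 77054 ± 11721 in control monocytes against 12586 ± 2915 in microglia (log2 fold 2.63, SE 0.26, adjusted p 0.000139) and 75335 ± 20547 against 11996 ± 2891 in KO mice (2.64, adjusted p 0.000145). Nfkbia, the NF-kB inhibitor that NF-kB itself induces, had log2 folds of 1.18 (adjusted p 0.0209) and 1.26 (adjusted p 0.0148). Its calls were lost without control microglia 1 or 3 or control monocytes 1 or 2 (adjusted p 0.0541 to 0.0792) or with only the 2 control groups in the fit (0.0713), and without KO microglia 2 or 3 or KO monocytes 1 or 3 (0.0541 to 0.0613). Cebpb rose in control monocytes by 1.67 (adjusted p 0.0309), a call lost when any control library other than microglia 1 was left out (adjusted p 0.0533 to 0.102), with edgeR (0.0517) or with only the 2 control groups in the fit (0.107). Nfkbia and Cebpb, but neither Il1b nor Ptgs2, also lost a call with scaling to total reads (adjusted p 0.0527 for Cebpb, and 0.071 and 0.0683 for Nfkbia).

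For each tested member the genes with the closest pattern over the 12 Cre libraries were sought among 9797 others, by the root mean square of the difference in centred log2 values. Most alike to Ptgs2 were the neutrophil-attracting chemokine Cxcl2 (0.358), Iqgap1 (0.54) and Mxd1 (0.576), with Cxcl2 at 25043 ± 11215 in control monocytes and 1339.6 ± 622 in control microglia. Alox5ap was closest to the lysosomal glycoprotein Cd68 (0.192), Sh3bgrl3 (0.196) and the ferritin light chain Ftl1 (0.239). Hpgds was closest to the selenoprotein carrier Selenop (0.209), Gng10 (0.246) and Ly86 (0.259). The nearest gene to Ptgs1 among all 9797 was another member, Ltc4s, at a distance of 1.40 beside a spread of Ptgs1 itself of 3.14, and the nearest to Ltc4s was the tetraspanin Cd81 (0.838, beside a spread of 2.38). For Alox5 (nearest Hist1h1c, 1.42) and Lta4h (Tmem161b, 0.736) the spreads were 2.95 and 1.61, and for Tbxas1 the distance to Ipo5 was 0.307 beside a spread of 0.477. These distances share the libraries and their depth and carry no test.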

How the data were processed

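RNA of sorted brain monocytes and microglia was sequenced in 20 libraries, with Nugen Ovation SoLo (GFP table) or SMART-Seq2 (Cre table), per the labels. The deposited signal is gene counts divided by size factors; the submitters' processing notes name CASAVA 1.82, bcl2fastq 2.20, kallisto and DESeq2 without saying in which step, and genome build and strand use are not stated in these sources. Whole reads were recovered for 100% of values above 0 (tolerance 0.01 reads). Genes with a value of at least 10 in 4 (GFP) or 3 (Cre) libraries were tested with limma 3.58.1 (R 4.3.3) on log2(value + 1). The groups of 1 table entered 1 fit, with Benjamini-Hochberg adjustment over all tested genes. On simulated counts this fit called 7% of genes at a log2 fold of 2 and 34.7% at 4 (GFP), and 12% and 40% (Cre). Of genes simulated without a difference it called 0.03% and 0.02%. Most simulated differences were thus missed, so a gene that was not called is not shown to be equal. Alternatives were a pseudocount of 10, other filters and scalings, edgeR 4.0.16 and DESeq2 1.42.0 on the recovered reads, only the 2 groups compared, an animal block, and leaving out libraries; for the pathway count and the ratios of the GFP table, leaving out 3 libraries was chosen after seeing the data. The animal names in the labels pair libraries; the deviations of paired libraries from their group means correlated across genes at -0.11 to 0.24 (GFP) and -0.06 to 0.01 (Cre). Ratios within libraries were compared by two-sided exact permutation tests, which treat libraries as unpaired. Besides the 9 members, the text names called genes of the pathway lists, those nearest to a call, and the genes most alike to each member. The members and lists were chosen with earlier results of these data known.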

Additional observations from a re-analysis of the deposited data

Results flagged for a closer look

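The 2 values of Ptges stood far from the others of their group, out of 18 gene and group combinations examined in the GFP table. Where the other 3 libraries hold no read, any read stands apart from them, so these flags add nothing to the counts. GFP microglia 3 held 1.25 normalized counts of Ptges, which is 1 read, and the other 3 microglia libraries had none. GFP monocytes 4 held 4.85, which is 2 reads, and the other 3 monocyte libraries had none.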

How the results depend on the processing

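The animal block changed no call of a member, with 0, 3, 4, 0, 0 and 0 members called in the order GFP, control and KO populations, KO against control in monocytes and in microglia, and interaction; over all genes it gave 60, 740, 796, 5, 4 and 0 calls. Called members in the GFP table, 0 in the reported analysis, were 2 with a pseudocount of 10, 1 with upper quartile scaling, 1 with DESeq2, 4 when the 3 libraries with few detected genes were left out, and 0 to 1 leaving out single libraries. They were 3 to 4 (reported 3) in control and 2 to 3 (reported 4) in KO mice leaving out single libraries. All-gene calls in the GFP table (70) were 198 with a pseudocount of 10, 38 without a filter, 127 with upper quartile and 106 with total-read scaling, 181 with DESeq2, 1198 without those 3, and 33 to 129 leaving out single libraries; pathway genes called (0) were 17 without those 3. In control mice (810) they were 478 with edgeR, 1614 with DESeq2, 386 with only the 2 groups compared and 574 to 679 leaving out single libraries. In KO mice (849) they were 522 with edgeR, 1570 with DESeq2 and 482 to 622. For KO against control monocytes (5) they were 0 with a filter of 50, edgeR or only 2 groups, 338 with DESeq2 and 2 to 30; for microglia (4) they were 0, 0, 0, 108 and 0 to 8. For the interaction (0) they were 276 with DESeq2 and 0 to 1. Log2 folds that changed sign were Lta4h in control mice (0.64 with edgeR and with DESeq2), Alox5 in KO mice (0.83 and 0.78) and Tbxas1 in KO against control monocytes (-0.0027 with upper quartile and -0.0098 with total-read scaling). Leaving out single libraries, ranges that crossed 0 were, between populations, Hpgds in the GFP table -3.20 to 0.48, Lta4h -0.87 to 1.28 (control) and -1.55 to 0.74 (KO), and Tbxas1 -0.47 to 0.22 (KO). For KO against control monocytes they were Ptgs1 -0.15 to 4.03, Ptgs2 -0.71 to 0.015, Alox5 -3.82 to 0.059, Lta4h -1.25 to 1.51, Ltc4s -0.39 to 1.43, Tbxas1 -0.34 to 0.27 and the Lta4h to Ltc4s ratio -2.45 to 1.29. For microglia they were Ptgs1 -0.23 to 0.46, Ptgs2 -0.056 to 0.78, Alox5ap -0.48 to 0.082, Lta4h -0.12 to 1.59, Hpgds -0.11 to 0.40, Tbxas1 -0.48 to 0.18 and the Ptgs2 to Ptgs1 ratio -0.20 to 0.57. For the interaction they were Ptgs1 -0.33 to 3.85, Alox5 -0.73 to 3.14, Lta4h -1.94 to 0.81, Hpgds -0.21 to 0.31 and Tbxas1 -0.21 to 0.48. None of these results was called in the reported analysis, and the cause of each change was not tested. With total-read scaling the median log2 fold of all genes moved from 0.51 to 0.65 (GFP), -0.24 to -0.40 (control) and -0.25 to -0.48 (KO), and no called member changed direction.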

Other observations

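Ptgs2os2, a long noncoding RNA on the strand opposite to Ptgs2 and 50.8 kb from it, was chosen after its values were seen. It held 584, 1073 and 271 normalized counts in control monocytes, 108, 11.6 and 111 in KO monocytes, 0, 93.5 and 0 in control microglia and 0.912, 0 and 0 in KO microglia. Every control monocyte library was above every KO monocyte library, beside 8.82% of all tested genes without overlap. The log2 fold of Ptgs2os2 was -3.37 for KO against control (SE 1.75, limma adjusted p 0.847). Control monocytes were higher than control microglia by a log2 fold of 6.93 (SE 1.75, limma adjusted p 0.0361), and KO monocytes than KO microglia by 5.43 (adjusted p 0.0948). No GFP monocyte library had a read of Ptgs2os2, whereas GFP microglia 1 and 2 held 1 and 5 reads. Ptgs2os, another noncoding RNA 68 bases from Ptgs2, had 4, 8 and 7 reads in control monocytes 1, 2 and 3 and none in the other 9 Cre libraries.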
